A study of Mus musculus with 6 samples.

Results

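The regions described here lie at the genes of 7 surface proteins that are used to mark stem and progenitor cells of the mouse hair follicle: Lgr4, Lgr5, Lgr6, Lrig1, Plet1, Cd34 and Cd200. At these 7 genes, regions were taken by position, without regard to the libraries in which they were open. The 7 genes and the gene lists set beside them were, however, chosen with earlier results of these data known. Their shares beside the background are therefore a description and no independent test. Overlapping peaks of 6 ATAC-seq libraries (1 bp or more in common) form 75738 consensus regions, of which 62802 lay within 50 kb of a protein-coding gene span and were assigned to the nearest. The 7 genes held 97 regions, from 7 at Cd34 to 22 at Lrig1. A region with a peak in a library is called open there, and one without is called closed.

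ATAC-seq uses a transposase that cuts and tags accessible DNA. The cells came from back skin of TNC-CREER; tdTomato mice on a C57BL/6 background, which carry a tamoxifen-inducible Cre under control of the tenascin-C gene and a red reporter. All groups shared the genotype, 2 tamoxifen doses of 100 µg/g (days 51 and 52 after birth), and tissue collection at day 60. Touch dome cells, keratinocytes of the small epithelial patches that house Merkel cells, were positive for EPCAM, SCA1, α6-integrin and the reporter. Hair follicle (HF) cells had EPCAM and α6-integrin without SCA1 or the reporter. Interfollicular epidermis (IFE) cells had EPCAM, SCA1 and α6-integrin without the reporter. None of the 7 proteins was part of a sorting gate, and no gate selected one compartment of the follicle, so the HF libraries hold bulge and other SCA1-negative follicle cells together. The touch dome gate rests on where and when the Cre was active. Each population had 2 libraries of 50000 sorted cells, and the labels do not give their animals, so p-values measure only the spread between libraries, possibly a technical one.

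The follicle keeps its stem cells in the bulge and in zones above it, and each of the 7 proteins marks a part of this system. LGR4, LGR5 and LGR6 are receptors for R-spondins, secreted proteins that strengthen Wnt signalling by removing the ubiquitin ligases ZNRF3 and RNF43 from the cell surface. LGR5 marks the lower bulge and hair germ, LGR6 the isthmus above the bulge, and LGR4 is expressed more widely. LRIG1, which restrains EGF receptor signalling, marks the junctional zone, and PLET1, the antigen of the antibody MTS24, marks the upper isthmus. CD34, a sialomucin, marks mouse bulge cells but also blood progenitors, endothelium and many dermal fibroblasts. CD200, a membrane glycoprotein that dampens myeloid cells through its receptor, is found on bulge cells and on several cell types outside the epidermis.

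The promoters separated Cd34 from the others. RefSeq start sites and sequences (GRCm38.p6, the assembly behind mm10) were matched for 6 of the 7 genes, all but Lgr5. In the 300 bases around the start (250 before it and 50 after), Cd34 had 220 and 59 bases under peaks in the touch dome libraries, 292 and 272 in HF, and 0 and 0 in IFE. Both touch dome and both HF libraries were thus open at the Cd34 start and both IFE libraries closed, although touch dome replicate 2 reached only the edge of the window. Across 21263 windows of protein-coding genes, 0.212% had this state and 51.1% had a peak in all 6 libraries. The windows of Lgr4, Lgr6, Lrig1 and Plet1 were covered over all 300 bases in every library. That of Cd200 was covered over 269 and 300 bases in the touch dome libraries and 300 in each of the others.

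The 250 bases before the start are shown for Cd34, closed in IFE, and for 3 starts open in every library, since these span the range of base composition among the genes. They run 5′ to 3′ on the gene's strand, with CpG dinucleotides in capitals. Cd34 lies at chr1:194938571-194938820 (plus strand), Cd200 at chr16:45409054-45409303 (minus strand), Plet1 at chr9:50494275-50494524 (plus strand) and Lrig1 at chr6:94700146-94700395 (minus strand).
Cd34: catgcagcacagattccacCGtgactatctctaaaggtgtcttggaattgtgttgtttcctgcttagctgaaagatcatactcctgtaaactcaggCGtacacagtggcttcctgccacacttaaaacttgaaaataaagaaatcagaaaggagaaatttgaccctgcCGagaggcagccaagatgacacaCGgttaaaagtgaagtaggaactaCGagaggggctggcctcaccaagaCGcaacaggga
Cd200: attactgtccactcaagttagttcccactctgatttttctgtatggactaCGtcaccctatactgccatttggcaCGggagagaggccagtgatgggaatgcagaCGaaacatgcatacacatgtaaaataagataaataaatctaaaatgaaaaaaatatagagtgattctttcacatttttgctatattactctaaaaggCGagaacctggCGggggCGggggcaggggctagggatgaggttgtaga
Plet1: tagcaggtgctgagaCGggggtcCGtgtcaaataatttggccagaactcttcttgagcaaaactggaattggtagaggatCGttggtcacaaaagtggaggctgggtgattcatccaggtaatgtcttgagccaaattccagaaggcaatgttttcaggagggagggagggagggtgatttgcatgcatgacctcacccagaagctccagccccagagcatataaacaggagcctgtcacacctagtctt
Lrig1: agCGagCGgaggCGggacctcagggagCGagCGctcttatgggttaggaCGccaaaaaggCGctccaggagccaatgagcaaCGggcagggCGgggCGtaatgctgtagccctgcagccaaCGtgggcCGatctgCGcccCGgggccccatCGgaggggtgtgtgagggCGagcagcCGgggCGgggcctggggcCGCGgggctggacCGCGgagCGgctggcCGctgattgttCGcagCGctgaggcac

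Base composition did not set Cd34 apart from the starts that were open everywhere. Cd34 and Cd200 each had 6 CpG in these bases, Plet1 had 3, Lgr4 10, Lgr6 16 and Lrig1 26. The median was 10 over all windows, 17 over windows open in every library and 3 over windows with no peak in any. In all, 6 short motifs were searched on both strands: the TCF/LEF motif TTCAAAG, the promoter box TATAAA, the box CCAAT that NF-Y binds, the Sp1 motif GGGCGG, the AP-1 motif TGAGTCA and the E-box CACCTG. These letters are absent from the Cd34 bases, which says nothing about the factors. Plet1 held TATAAA at position -30 from the start, and 11.6% of all promoters hold it somewhere in their 250 bases. On the opposite strand it held CCAAT, found in 35.4% of promoters, and the E-box, found in 16.9%. The Sp1 motif, found in 42.6% of promoters, was in Lrig1, Cd200 and Lgr6, and the NF-Y box was in Lrig1 and Lgr4. The TCF/LEF motif (4.05% of promoters) and the AP-1 motif (4.06%) were in none of the 6.

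The libraries were alike in size. Touch dome libraries had 50153 and 59250 peaks, HF libraries 54844 and 57131, and IFE libraries 52219 and 51124. The lists give no read counts or heights, so depth is unknown, and touch dome replicate 2 had the most peaks. In sorted pools, fewer cells with an open region and a lower chance of opening per cell cannot be told apart. Peaks were present at all 7 keratinocyte genes checked (Krt5, Krt14, Trp63, Itga6, Itgb4, Col17a1 and Epcam) in every library. Of the 4 with a promoter window, those of Krt5, Col17a1 and Epcam had a peak in every library. The Krt14 window had a peak only in touch dome replicate 2 and HF replicate 1. A start without a called peak in IFE was thus also seen at a keratinocyte gene.

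Over the 97 regions, HF libraries were open most often. Touch dome libraries had a peak in 66 and 71 of them, HF libraries in 84 and 88, and IFE libraries in 61 and 60. As shares these were 68.0% and 73.2% for touch dome, 86.6% and 90.7% for HF, and 62.9% and 61.9% for IFE. Over all regions placed at genes the shares were 66.5% and 78.4% for touch dome, 72.4% and 74.8% for HF, and 71.2% and 68.7% for IFE. HF thus stood above the other populations at these genes, and IFE below its own share elsewhere. Touch dome replicate 2 also lay below its own share, and replicate 1 slightly above. Summed over the 97 regions, peaks covered 62.0 and 76.8 kb in touch dome, 93.6 and 92.2 kb in HF and 64.1 and 62.3 kb in IFE. Touch dome and IFE thus overlapped in covered length.

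**Figure D1:**
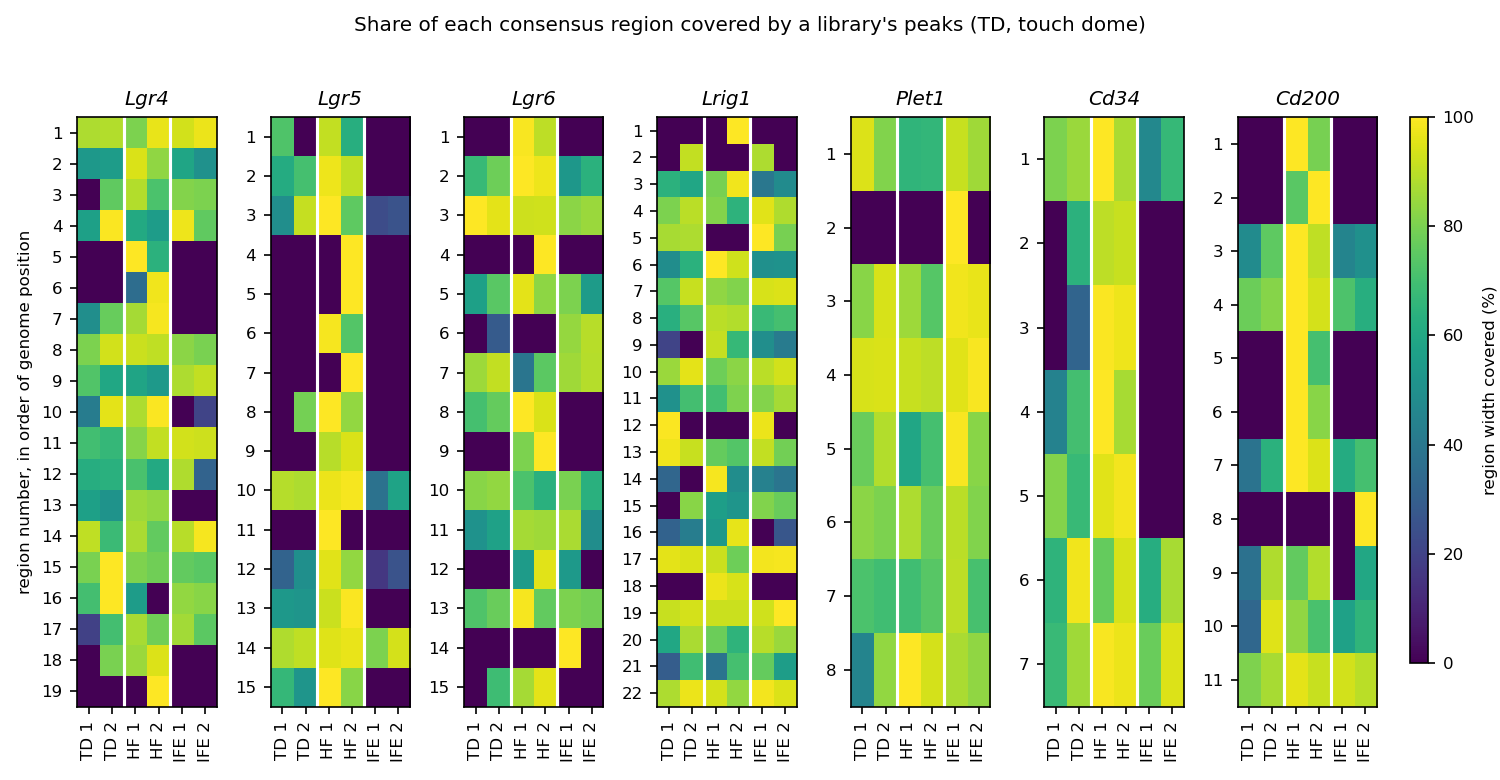
Each row is 1 of the 97 consensus regions of a gene, in order of genome position, each column is a library, and colour gives the percent of the region's width covered by that library's peaks, with 0 where none was called. HF columns are filled at most rows, IFE columns are empty at 11 of 15 Lgr5 rows, and Plet1 is filled in all libraries at 7 of 8 rows.

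Against IFE, HF was open at many more of these regions than the reverse. A peak in both HF and neither IFE library was found at 25 of 97 regions (25.8%), against a background of 12.8% of all regions placed at genes. The opposite state, open in IFE and closed in HF, was found at 2 regions (2.06%), against a background of 9.91%. The 25 were spread over 6 genes, with 7 at Lgr5, 5 at Lgr4, 4 each at Lgr6, Cd34 and Cd200 and 1 at Lrig1. Plet1 had none in either direction. Without any 1 HF or IFE library the count lay between 26 and 31, and the share over all placed regions lay between 14.3% and 17.5%. Leaving out a library loosens the rule, so neither could fall. Without HF replicate 1 the 7 genes had 32.0%, against 17.5% over all.

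By the number of open regions over all 7 genes together, touch dome lay between HF and IFE, though not at each gene. A peak in both touch dome and neither IFE library was found at 8 regions (8.25%, background 4.48%), and the reverse at 0 (background 1.82%). The 8 were 3 at Lgr5, 2 each at Lgr4 and Cd34 and 1 at Lgr6, and both HF libraries were open at each of them. Without touch dome replicate 1 the count was 13 (13.4%), but the share over all placed regions was then 10.8%, so the 7 genes stood little above it. With only the wider 50% of peaks the count was 5 of 57 regions (8.77%), against 3.54% over all. Against HF, touch dome was open alone at 1 region (1.03%, background 8.02%), at Lrig1. HF was open and touch dome closed at 12 (12.4%, background 7.26%), which became 19 (19.6%) without touch dome replicate 2, when the share over all placed regions was 13.5%. These comparisons share libraries and are not independent of each other. Touch dome had a peak in both libraries at 8 of the 25 regions that separated HF from IFE (32.0%), in 1 library at 6 (24.0%) and in neither at 11 (44.0%). Over all 8029 such regions near genes the shares were 25.6%, 25.7% and 48.7%, so the split at the 7 genes was close to the general one. Of the 6 open in 1 touch dome library, 5 were open in replicate 2 and 1 in replicate 1.

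**Figure D2:**
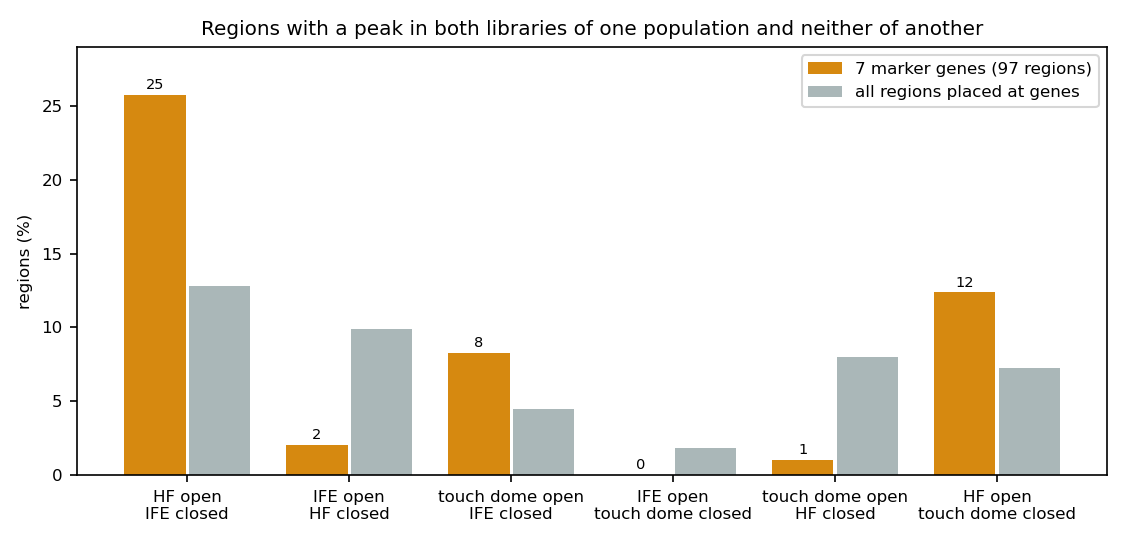
Bars give the percent of regions with a peak in both libraries of one population and neither of another, for the 97 regions of the 7 genes (orange, with the number of regions above) and for all 62802 regions placed at genes (grey). The orange bar exceeds the grey one where HF is open and IFE or touch dome closed and where touch dome is open and IFE closed, and falls short of it in the other 3 states.

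Regions open in all 6 libraries numbered 49 (50.5%, background 48.2%). HF alone was open at 11 (11.3%, background 6.22%), and touch dome and HF without IFE at 8 (8.25%, background 3.28%). The 11 had a median width of 701 bp, the 8 of 1228 bp and the 49 of 1371 bp, as merged over all libraries. A further 10 regions had a peak in 1 library, 18 had other mixtures, and 1 was open in touch dome and IFE without HF. Inside gene spans lay 67 of the 97 regions, and 30 lay outside. A region covering the end of the span was found once at each gene, and 6 of these 7 were open in all libraries, the exception being Cd34.

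With 2 libraries against 2, the smallest exact two-sided permutation p is 0.333, so no single gene can pass a threshold of 0.05. A gene's counts are therefore given beside the share of the 2608 genes with at least 7 regions whose counts likewise did not overlap. HF counts lay above IFE counts at 5 of the 7 genes (Lgr4, Lgr5, Lgr6, Cd34 and Cd200), against a background of 34.6%, and IFE above HF at 0 (background 24.7%). Touch dome lay above IFE at 3 (Lgr4, Lgr5 and Cd34; background 17.4%) and below it at 0 (background 8.24%). Touch dome lay below HF at 4 (Lgr4, Lgr5, Lgr6 and Cd200; background 23.7%) and above it at 0 (background 20.2%).

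**Figure D3:**
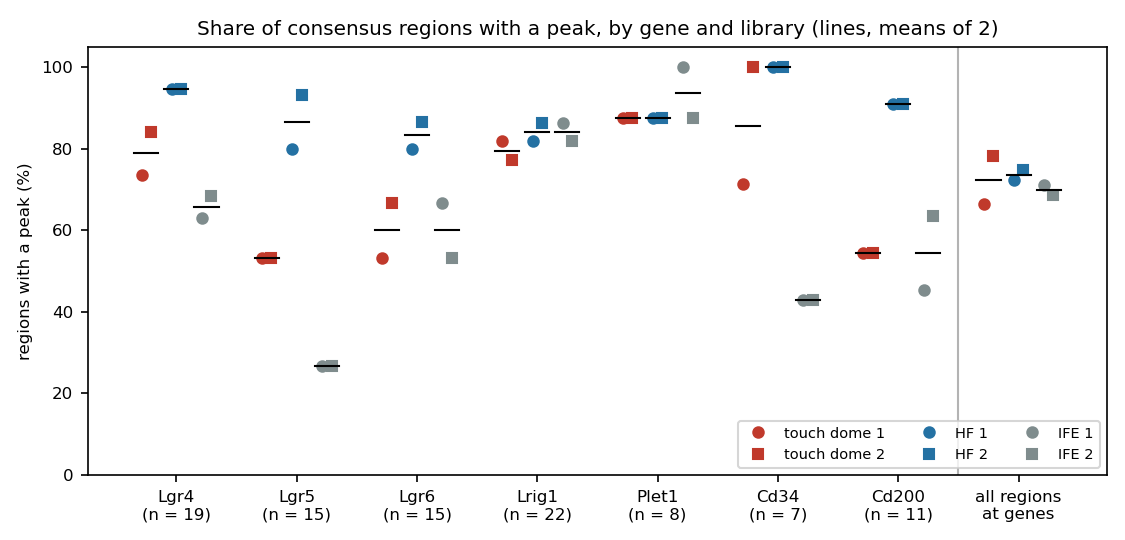
Points give the percent of a gene's consensus regions with a peak in each library (circle, replicate 1; square, replicate 2), and lines the mean of the 2, with all regions placed at genes on the right. Lgr5 and Cd34 have the lowest IFE values, 26.7% and 42.9% in both libraries, while Lrig1 and Plet1 have populations that lie close together.

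Lgr5 had the largest difference between HF and IFE in the share of its regions that were open. Touch dome libraries were open at 8 and 8 of its 15 regions, HF libraries at 12 and 14, and IFE libraries at 4 and 4. The means were 8 ± 0 in touch dome, 13 ± 1.41 in HF and 4 ± 0 in IFE (SD, n = 2 each), and no pair of groups overlapped (exact two-sided permutation p = 0.333 for each, the smallest possible). The gene spans chr10:115450314-115587780. The region at the high-coordinate end of the span, chr10:115585847-115588011, was open in every library, with 1910 and 1957 bp covered in touch dome, 2061 and 2090 bp in HF and 1739 and 2024 bp in IFE. HF lay above IFE there without overlap and touch dome overlapped IFE, while the regions whose state differed lay elsewhere in the span and beyond it.

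At Lgr5, 3 regions were open in both touch dome and both HF libraries and closed in IFE. These were chr10:115455550-115456746 and chr10:115556200-115557335 inside the span and chr10:115593302-115593924, which lies 5.52 kb beyond the high end. At the first, peaks covered 736 and 846 bp in touch dome against 1168 and 1083 bp in HF. HF alone was open at chr10:115490509-115491352, with 834 and 619 bp covered, and at chr10:115514900-115516009, with 989 and 1046 bp. Both HF libraries and 1 touch dome library were open at chr10:115443829-115444323 (touch dome replicate 1) and at chr10:115511767-115512362 (touch dome replicate 2). A peak in a single HF library was called at chr10:115478388-115478726, chr10:115479037-115479345, chr10:115508686-115509012 and chr10:115534781-115535523. No Lgr5 region was open in IFE and closed in HF. With only the wider 50% of peaks, the net of 3 touch dome regions over IFE became 0, and the net of 7 HF regions over IFE became 5.

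Even where all libraries were open, HF peaks covered more of the Lgr5 regions than IFE peaks did. At chr10:115548396-115550956, peaks covered 820 and 1276 bp in touch dome, 2446 and 2150 bp in HF and 412 and 652 bp in IFE. At chr10:115468194-115469765 they covered 778 and 1431 bp in touch dome, 1572 and 1179 bp in HF and 365 and 400 bp in IFE. At chr10:115528109-115530310 the values were 1954 and 1934 bp in touch dome, 2136 and 2174 bp in HF and 834 and 1279 bp in IFE. IFE lay below both other populations at all 3, and touch dome overlapped HF only at chr10:115468194-115469765. Summed over the gene, peaks covered 7.57 and 8.83 kb in touch dome, 14.7 and 13.8 kb in HF and 3.35 and 4.36 kb in IFE. HF covered 3.69 times the length of IFE, and touch dome 2.13 times that of IFE. Where peaks had to cover 50% of a region, the ratio of HF to IFE was 5.64.

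Lgr4 was open in HF at nearly every region. It spans chr2:109917647-110014257, and all 19 of its regions lay inside the span. Touch dome libraries were open at 14 and 16, HF libraries at 18 and 18 and IFE libraries at 12 and 13, with no overlap between any pair of groups (exact two-sided permutation p = 0.333 for each). Both touch dome and both HF libraries were open, and IFE closed, at chr2:109944621-109945879 and chr2:109974626-109975260. At the first, peaks covered 620 and 965 bp in touch dome, 1089 and 1242 bp in HF and 0 in IFE. HF alone was open at chr2:109933128-109933771 and chr2:109935213-109936435, and HF with touch dome replicate 2 at chr2:110004671-110005406. The start, chr2:109917215-109919067, was open in every library, with 1624 and 1639 bp covered in touch dome, 1488 and 1788 bp in HF and 1723 and 1801 bp in IFE. Covered length over the gene was 10.6 and 14.8 kb in touch dome, 16.2 and 17.0 kb in HF and 11.7 and 10.9 kb in IFE, so touch dome and IFE overlapped in length though not in number. The net of 2 regions for touch dome over IFE became 0 with only the wider 50% of peaks.

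The region of Lgr4 with the largest gap in mean covered length between HF and IFE was chr2:109958839-109960979. Peaks there covered 896 and 2057 bp in touch dome, 1874 and 2126 bp in HF and 0 and 442 bp in IFE. In IFE, 1 library had a peak, so the region is not among those counted as closed in IFE. No Lgr4 region was open in IFE and closed in HF or touch dome.

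At Lgr6, HF stood apart from touch dome and IFE, which overlapped. The gene spans chr1:134983300-135105374 on the minus strand. Of its 15 regions, touch dome libraries were open at 8 and 10, HF libraries at 12 and 13 and IFE libraries at 10 and 8. Touch dome against IFE gave an exact two-sided permutation p of 1, and HF did not overlap either (p = 0.333 for each exact test). HF alone was open at chr1:135005406-135006311, with 896 and 816 bp covered, and at chr1:135060004-135060726, with 581 and 723 bp. Touch dome and HF were open without IFE at chr1:135043553-135044921, where peaks covered 965 and 1047 bp in touch dome and 1364 and 1294 bp in HF. HF and touch dome replicate 2 were open at chr1:135114224-135114879, which lies 8.85 kb upstream of the span.

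Lgr6 also held a region with the opposite state. At chr1:135035975-135037172, peaks covered 0 and 342 bp in touch dome, 0 and 0 bp in HF and 1008 and 1067 bp in IFE. Regions open and closed in opposite populations therefore lay within the same gene. Covered length was 10.4 and 11.9 kb in touch dome, 15 and 15.2 kb in HF and 12.1 and 9.73 kb in IFE. The net of 1 region for touch dome over IFE was -1 without IFE replicate 2, and the net of 3 for HF over touch dome became 0 with only the wider 50% of peaks.

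Lrig1 had the most regions and showed little difference in their number. It spans chr6:94604529-94700298 on the minus strand. Of its 22 regions, touch dome libraries were open at 18 and 17, HF libraries at 18 and 19 and IFE libraries at 19 and 18, and all groups overlapped (exact two-sided permutation p = 0.667 for touch dome with either other population and 1 for HF with IFE). All 6 libraries were open at 13 regions. Over the start, chr6:94698843-94701194, peaks covered 2258 and 2222 bp in touch dome, 2167 and 1829 bp in HF and 2315 and 2316 bp in IFE.

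At Lrig1, 2 regions differed in state between HF and IFE, in opposite directions. Upstream of the start, chr6:94715053-94715602 was open in HF alone, with 534 and 517 bp covered. Inside the gene, chr6:94636689-94637341 had 567 and 573 bp covered in touch dome, 0 and 0 bp in HF and 653 and 519 bp in IFE. This was the only one of the 97 regions open in touch dome and IFE and closed in HF. At chr6:94665235-94667269, peaks covered 417 and 0 bp in touch dome, 1856 and 1365 bp in HF and 1002 and 850 bp in IFE. Total covered length was 16.2 and 18.1 kb in touch dome, 20.2 and 19.7 kb in HF and 19.5 and 18.3 kb in IFE. The ratio of HF to IFE was 1.06, and 0.916 with regions up to 100 kb from the span.

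Plet1 had nearly the same number of open regions in the 3 populations. The gene is short, at chr9:50494525-50505639, and 7 of its 8 regions lay outside the span. Touch dome libraries were open at 7 and 7, HF libraries at 7 and 7 and IFE libraries at 8 and 7 (exact two-sided permutation p = 1 for each comparison). The region open in 1 library, chr9:50452403-50452825, had 423 bp covered in IFE replicate 1. Over the start, chr9:50493938-50496149, peaks covered 1588 and 1537 bp in touch dome, 1535 and 1635 bp in HF and 1993 and 1564 bp in IFE. Covered length was 7.16 and 7.69 kb in touch dome, 7.57 and 7.32 kb in HF and 8.99 and 7.84 kb in IFE. IFE thus lay above both others without overlap, the reverse of the other genes with a difference in length between HF and IFE. With 2 libraries a group, an equal count of peaks does not show that the populations have equal accessibility.

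Cd34 was the gene with a closed start in IFE. It spans chr1:194938821-194961292, and touch dome libraries were open at 5 and 7 of its 7 regions, HF libraries at 7 and 7 and IFE libraries at 3 and 3. HF and IFE did not overlap, nor did touch dome and IFE (exact two-sided permutation p = 0.333 for each), while touch dome and HF shared a value of 7. The region over the start, chr1:194938579-194940068, had 659 and 1046 bp covered in touch dome, 1490 and 1295 bp in HF and 0 in both IFE libraries. A second region, chr1:194940919-194942347, centred 2.81 kb into the gene, had 1163 and 965 bp in touch dome, 1366 and 1406 bp in HF and 0 in IFE. Both were open in touch dome and HF and closed in IFE.

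Upstream of Cd34, chr1:194908656-194909855 and chr1:194929634-194930565 were open in both HF libraries, touch dome replicate 2 and no IFE library. At chr1:194929634-194930565, which lies 8.26 kb before the start, touch dome had 0 and 302 bp covered, against 925 and 907 bp in HF. The remaining regions were open in every library: chr1:194894888-194896177, chr1:194962142-194963297, just 0.85 kb past the gene, and chr1:194976022-194977748. In all, peaks covered 4.78 and 6.79 kb in touch dome, 8.74 and 8.60 kb in HF and 2.65 and 3.51 kb in IFE, a ratio of 2.82 for HF over IFE and of 1.88 for touch dome over IFE. With regions up to 10 kb from the span these ratios were 5.43 and 3.49. The net of 2 regions for touch dome over IFE was 4 without touch dome replicate 1. The share of promoter windows open in both HF and neither IFE library was 0.974%, and in both touch dome and neither IFE library 0.268%.

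CD34 is also carried by dermal fibroblasts and endothelium, and their genes were checked beside it. Of 7 fibroblast genes (Pdgfra, Col1a1, Col1a2, Dcn, Lum, Twist2 and Pdgfrb), 5 had 16 regions in all, with a peak in 9 and 11 in touch dome libraries, 14 and 14 in HF and 5 and 3 in IFE. HF was open and IFE closed at 8 of the 16 (50.0%, background 12.8%), and the reverse held at 0. Touch dome was open and IFE closed at 5 of the 16 (31.25%, background 4.48%), and the reverse also held at 0. Lum and Pdgfrb had no region. Of the 3 fibroblast promoters in the RefSeq table, that of Col1a2, a type I collagen chain, was open in touch dome and HF and closed in IFE, and those of Pdgfra and Twist2 had no peak in any library. Of 9 endothelial genes, 7 had 58 regions, with a peak in 32 and 38 in touch dome, 44 and 48 in HF and 37 and 39 in IFE, and Cdh5 and Kdr had none. HF was open and IFE closed at 12 endothelial regions (20.7%, background 12.8%), 9 of them at Erg, a transcription factor of endothelium, and the reverse held at 4 (6.90%, background 9.91%), 3 of them at Vwf. Pecam1 had none of either kind. Touch dome was open and IFE closed at 4 endothelial regions (6.90%, background 4.48%), and the reverse held at 2 (3.45%, background 1.82%). Of 8 haematopoietic genes, 6 had 15 regions, with a peak in 11 and 12 in touch dome, 10 and 11 in HF and 9 and 7 in IFE. HF was open and IFE closed at 3 of these (20%, background 12.8%), and the reverse held at 2 (13.3%, background 9.91%). Touch dome was open and IFE closed at 2 (13.3%, background 4.48%), and the reverse held at 0. None of the 6 haematopoietic promoters in the RefSeq table was open in any library, and Kit and Csf1r had no region. Of the 6 endothelial promoters there, that of Egfl7 was open in every library and that of Tek in all but IFE replicate 1. The other endothelial promoters were open in none. The part of these cell types in the Cd34 peaks was not tested.

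Cd200 had a set of regions, far from the gene, that were open in HF alone. It spans chr16:45382111-45409060 on the minus strand, and 9 of its 11 regions lay beyond the span on the low-coordinate side, downstream of the gene. Touch dome libraries were open at 6 and 6, HF libraries at 10 and 10 and IFE libraries at 5 and 7. HF did not overlap touch dome or IFE (exact two-sided permutation p = 0.333 for each), while touch dome and IFE had the same mean of 6 (p = 1, exact). HF alone was open at 4 regions: chr16:45336331-45336809, chr16:45341473-45342173, chr16:45355985-45356518 and chr16:45362978-45363553. These lay 45.3, 39.9, 25.6 and 18.6 kb beyond the span, and HF peaks covered 377 to 701 bp of each. With regions up to 10 kb from the span, the net of 4 for HF over IFE became 0.

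Nearer to Cd200 the populations were more alike. Over the start, chr16:45406857-45409516, peaks covered 2149 and 2315 bp in touch dome, 2555 and 2434 bp in HF and 2477 and 2387 bp in IFE. At chr16:45399531-45402273, inside the gene, the touch dome libraries differed from each other, with 913 and 2611 bp, against 2283 and 1955 bp in HF and 1572 and 1793 bp in IFE. Total covered length was 5.38 and 8.74 kb in touch dome, 11.3 and 10.7 kb in HF and 5.80 and 7.72 kb in IFE, a ratio of 1.62 for HF over IFE.

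**Figure D4:**
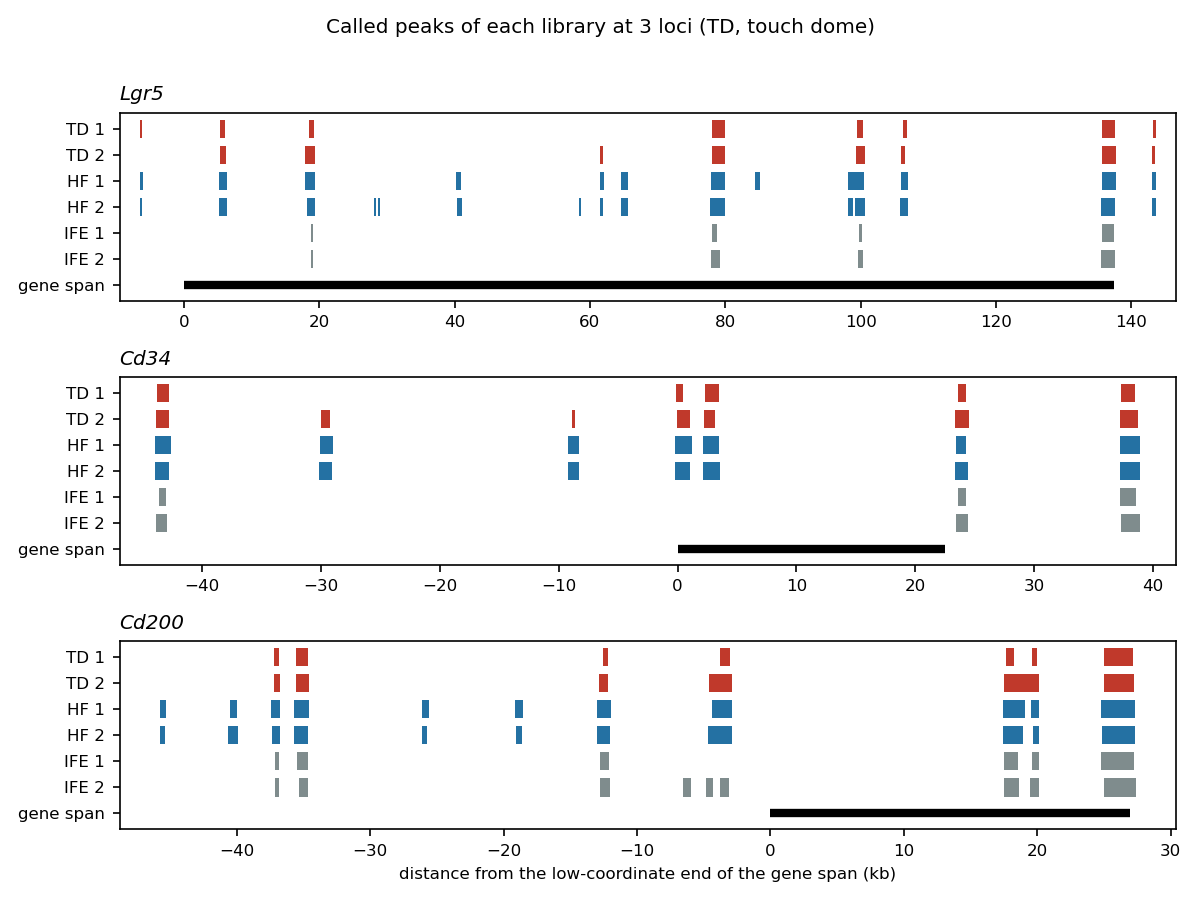
Bars show the called peaks of each library along Lgr5, Cd34 and Cd200, placed by distance in kb from the low-coordinate end of the gene span (black line). HF rows hold the most peaks at Lgr5, IFE rows are empty at the start of Cd34, and 4 peaks below Cd200 appear in HF rows alone.

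Covered length also put HF highest at most genes, while touch dome against IFE went both ways. HF lay above IFE without overlap at 6 of 7 genes, all but Plet1, against a background of 38.8%, and IFE above HF at Plet1 (background 35.9%). HF lay above touch dome at the same 6 genes (background 29.2%), and touch dome above HF at 0 (background 25.2%). The lead of HF over IFE at Lrig1 was slight, with a ratio of 1.06, which became 0.916 with regions up to 100 kb from the span. Touch dome lay above IFE at Lgr5 and Cd34 (background 17.7%) and below it at Lrig1 and Plet1 (background 14.0%). At Lgr4, Lgr6 and Cd200 touch dome and IFE overlapped. At the 49 regions open in all libraries, both HF libraries had a greater covered length than both IFE libraries at 20 (40.8%, background 22.2%). Both IFE libraries had the greater length at 18 (36.7%, background 37.9%). Covered length in touch dome was greater than in IFE in this sense at 11 (22.4%, background 12.7%) and smaller at 11 (22.4%, background 21.4%). The 20 included all 4 at Lgr5, 4 of 5 at Cd200 and 2 of 3 at Cd34. Lrig1 went the other way, with HF longer at 3 and IFE longer at 9 of 13, as did Plet1, with 1 and 4 of 7.

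**Figure D5:**
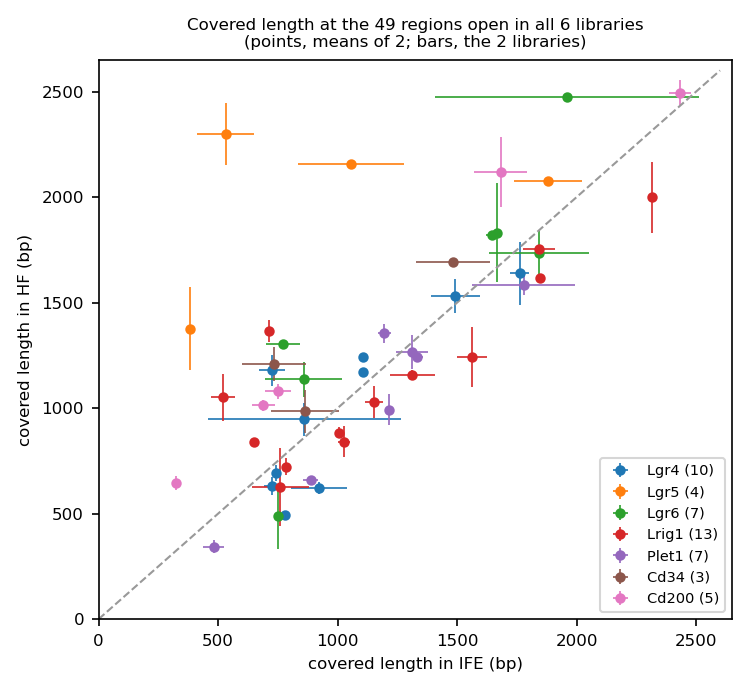
Each point is 1 of the 49 regions open in every library, placed by the mean length covered by IFE peaks (x axis, bp) and HF peaks (y axis, bp), with bars spanning the 2 libraries and colour giving the gene. The 4 Lgr5 regions lie above the dashed line of equal length, while 9 of 13 Lrig1 regions have a greater covered length in both IFE libraries.

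At the partners of the LGR receptors in Wnt signalling, the share of regions open in HF and closed in IFE was close to background. Among 20 genes for R-spondins, the ligases, Frizzled and LRP receptors and others, 18 had 125 regions. Peaks were present at 75 and 92 of these in touch dome, 106 and 97 in HF and 82 and 80 in IFE. HF was open and IFE closed at 17 (13.6%, background 12.8%), and the reverse held at 5 (4%, background 9.91%). Lrp5, a Wnt co-receptor, had 4 regions of the first kind and 0 of the second. Znrf3 and Rnf43, the ligases removed by R-spondin and LGR, had 3 and 2, and 1 and 1. Rspo2 and Rspo4 had no region.

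Receptors that LRIG1 acts on, with its relatives Lrig2 and Lrig3, held 83 regions at 8 genes. A peak was present at 58 and 71 in touch dome libraries, 57 and 56 in HF and 63 and 66 in IFE. HF was open and IFE closed at 6 (7.23%, background 12.8%), and the reverse held at 12 (14.5%, background 9.91%), 6 of them at Met, the receptor of hepatocyte growth factor. Egfr had 2 and 3. Podxl and Podxl2, which encode relatives of CD34, had 1 and 2 regions, with none called in any comparison. Of the CD200 receptors, Cd200r3 had 4 regions and Cd200r4 had 1, and Cd200r1 and Cd200r2 had none.

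Other follicle stem cell genes were also open in HF more often than in IFE. Among 272 regions at 18 genes, touch dome libraries were open at 171 and 210, HF libraries at 222 and 214 and IFE libraries at 168 and 167. HF was open and IFE closed at 60 (22.1%, background 12.8%), and the reverse held at 19 (6.99%, background 9.91%). Touch dome was open and IFE closed at 22 (8.09%, background 4.48%), and the reverse held at 3 (1.10%, background 1.82%). Runx1, a transcription factor active in follicle stem cells, held 10 of the 60, and Postn, which encodes the matrix protein periostin, held 8. Postn was open at 5 and 8 of 10 regions in touch dome, 9 and 9 in HF and 1 and 1 in IFE. Tcf7l2, a TCF/LEF factor, held 9 regions open in HF and closed in IFE and 3 with the opposite state. Itga6, whose protein was used in the gates, held 7 of the 19 regions open in IFE and closed in HF and 1 of the 60 with the opposite state.

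The 50 kb limit set which regions were counted. Just inside it lay chr9:50443875-50444873 at 49.7 kb from Plet1 and chr6:94748153-94748966 at 47.9 kb from Lrig1, both open in every library, and the Cd200 region at 45.3 kb, open in HF alone. Just outside lay chr16:45330495-45331993 at 50.1 kb from Cd200 and chr1:194885497-194886250 at 52.6 kb from Cd34, both open in both HF libraries only. At 53.1 kb from Cd200, chr16:45328417-45329056 was open in HF replicate 2 only.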

How the data were processed

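The authors deposited 1 list of ATAC-seq peaks per library, with chromosome, start, end and name and no score or height, per the file contents. The submitters' processing notes name MACS2 2.2.7.1, SAMtools 1.9, Bowtie2 2.4.5, Trim Galore 0.6.7 and build mm10. No setting, nor any shift of reads for the transposase, is stated there. Peaks were called per library, so presence depends on a depth that is unknown.

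Python 3.11.15, numpy 2.4.6 and pandas 2.3.3 were used. Peaks sharing at least 1 bp were merged, and each region was placed at the nearest protein-coding span (RefSeq, GRCm38.p6) within 50 kb. Covered length is the number of bases of a region under a library's peaks. Coordinates count from 1. A region was called between 2 populations when both libraries of one and neither of the other had a peak. The genes named are the 7, the 3 nearest to each in pattern, and up to 4 per list with the largest net of called regions. Others, such as Znrf3, Rnf43, Egfr and Itga6, and marker genes with no region, were named for their role after their values were seen. The members and lists were chosen with earlier results of these data known. The steps were tested on simulated peaks and gave 0 wrong covered lengths of 392. Alternatives changed the overlap, the gene window, the peaks kept and the libraries. Same-numbered libraries were not shown to be paired.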

Additional observations from a re-analysis of the deposited data

How the results depend on the processing

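With 1 library left out, the counts of regions lay between 8 and 13 for touch dome open and IFE closed (8 with all libraries). The share over all placed regions was 4.48% with all libraries and 10.8% beside the 13. For the reverse the counts lay between 1 and 3 (0 with all), or 1.03% to 3.09%, against 2.46% to 6.52% over all. Touch dome open and HF closed gave between 1 and 3 (1 with all), or 1.03% to 3.09%, against 9.35% to 13.8%. Its reverse gave between 13 and 19 (12 with all), with 7.26% over all, and 13.5% beside the 19. Counts for HF open and IFE closed lay between 26 and 31 (25 with all), with 12.8% over all, and 17.5% beside the 31. The reverse of that gave between 2 and 6 (2 with all), or 2.06% to 6.19%, against 11.5% to 14.1%. Requiring peaks over 50% of a region gave 1 for IFE open and touch dome closed (1.03%, against 2.22% over all). A window of 10 kb, with 76 regions, gave 7 (9.21%, against 6.99% over all) for HF open and touch dome closed. A window of 100 kb, with 118 regions, gave 4 for touch dome open and HF closed (3.39%, against 8.15%) and 6 for IFE open and HF closed (5.08%, against 10.1%). The wider 50% of peaks, with 57 regions, gave 5 for touch dome open and IFE closed (8.77%, against 3.54%) and 1 for the reverse (1.75%, against 1.53%). They gave 0 for touch dome open and HF closed (against 6.92%) and 1 for IFE open and HF closed (1.75%, against 8.42%). An equal number of the widest peaks, with 91 regions, gave 2 for IFE open and touch dome closed, 3 for touch dome open and HF closed and 4 for IFE open and HF closed. Fewer libraries or peaks, or another window, change what can be counted, and no further cause was tested. With a library left out the rule is looser, so those counts could only stay or rise. The net at Lgr6 for touch dome minus IFE was -1 without IFE replicate 2, and the covered length at Lrig1 for HF over IFE was 0.916 with the 100 kb window. Covered-length ratios near 1 between overlapping groups also crossed 1. Touch dome over IFE was 0.943 at Lgr4 without touch dome replicate 2 (1.13 with all), as low as 0.918 at Lgr6 (1.02) and 0.796 at Cd200 (1.04), and touch dome over HF reached 1.05 at Plet1 (0.998). Covered length was tried after the first results were seen. Of its 210 alternative values, 184 stayed within the spread of the libraries, 25 moved and 1 reversed. The values with 1 library left out come from the libraries that set this spread, so they are no independent check. Merging peaks within 100 bp left every ratio as it was. The 184 therefore overstate how stable the ratios are.

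With the replicate number as a block, both same-numbered pairs had to differ, which is the same condition as the original call. The counts were thus bound to be the same, and this is no check of them. They were 8 and 0 for touch dome against IFE and 1 and 12 for touch dome against HF. For HF against IFE they were 25 and 2. The smallest paired p with 2 pairs is 0.5. The deviations of same-numbered libraries correlated at 0.0513 (touch dome and IFE), 0.00492 (touch dome and HF) and 0.0605 (HF and IFE), so the numbers were not shown to pair them. Depth is unknown, and a missing peak says only that none was called.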

Other observations

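The 3 genes whose shares of open regions across the 6 libraries lay nearest to each marker, by Euclidean distance among genes with at least as many regions, are a description with no test. Nearest to Lgr5 were Exoc4 (distance 0.0667), Vit (0.0943) and Ncald (0.15). Exoc4 was open at 7 and 8 of 15 regions in touch dome, 12 and 14 in HF and 4 and 4 in IFE. Nearest to Cd34 were Slc16a7 (0.115), Pde11a (0.123) and Lmo4 (0.143), and nearest to Cd200 were Enpp1 (0.111), Lpar1 (0.152) and Extl3 (0.157). Nearest to Lgr4 were Actn1 (0.139), Dock9 (0.145) and Aopep (0.145), and nearest to Lgr6 were Ankrd44 (0.119), Cracdl (0.133) and Daam1 (0.139). Nearest to Lrig1 were Mical3 (0.122), Casz1 (0.126) and Sipa1l3 (0.132), and nearest to Plet1 were Ddr1 and Siah1a (0.0932 each) and Apcdd1 (0.0997).

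Markers of other cells of the skin were counted as well. The 6 melanocyte genes held 27 regions, with a peak in 18 and 23 in touch dome, 21 and 22 in HF and 14 and 15 in IFE. Of these, 20 lay at Mitf, and Tyr and Pmel had none. HF was open and IFE closed at 9 of the 27 (33.3%, background 12.8%), 8 of them at Mitf. The reverse held at 1 (3.70%, background 9.91%). The 5 Merkel cell genes held 14 regions, with a peak in 5 and 8 in touch dome, 9 and 11 in HF and 8 and 5 in IFE. HF was open and IFE closed at 4 of the 14 (28.6%, background 12.8%), all at Piezo2, and the reverse held at 0. The melanocyte and Merkel cell shares lay above the 25.8% of the 7 marker genes, and rested mostly on Mitf and Piezo2. The 7 keratinocyte genes held 88 regions, with a peak in 60 and 68 in touch dome, 60 and 62 in HF and 73 and 68 in IFE. HF was open and IFE closed at 5 of the 88 (5.68%, background 12.8%), and the reverse held at 11 (12.5%, background 9.91%). Regions more than 50 kb away with a marker as the nearest gene numbered 19 at Lrig1, 10 at Plet1, 6 at Lgr5, 3 at Cd200, 2 at Cd34 and 0 at Lgr4 and Lgr6.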
